A study of Mus musculus with 28 samples.

Results

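The genes of the route from glucose to lactate and to the mitochondrial entry of pyruvate were followed in the cerebral cortex of mice in which Cre, driven by the mouse GFAP promoter that marks astrocytes, removed a targeted gene. They were 34 genes taken by symbol, of 53342 Ensembl gene identifiers in each table: 2 glucose transporters, 9 enzymes of upper glycolysis, 4 enzymes that set fructose bisphosphates, 6 enzymes of lower glycolysis, 2 lactate dehydrogenases, 3 monocarboxylate transporters, 3 pyruvate dehydrogenase subunits, 4 pyruvate dehydrogenase kinases and pyruvate carboxylase. The rule that lists them uses no measured value, but they were chosen with earlier results of these data known. Their shares called beside all genes are therefore not blind to the data. Of the 34, 33 passed the filter on low counts in every comparison. The exception was Fbp2, a fructose bisphosphatase best known from muscle, which had between 0 and 7 reads per library and did not pass it in any comparison.

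Glycolysis splits glucose into pyruvate in the cytosol. Lactate dehydrogenase exchanges pyruvate and lactate, monocarboxylate transporters carry both across the membrane, and the pyruvate dehydrogenase complex admits pyruvate carbon to the citric acid cycle unless its kinases switch it off. In brain, astrocytes take up glucose from the blood vessels that they touch, store it as glycogen, and carry pyruvate carboxylase, which neurons largely lack. They are widely held to release lactate that neurons can burn, and several steps of the route have an isoform that is typical of astrocytes and another that is typical of neurons.

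Bulk RNA-Seq libraries were made at P24 and at P17 from 4 cKO and 4 Ctrl mice at each age, and TRAP-Seq libraries at P24 from 3 cKO and 3 Ctrl mice, each mouse giving 1 Input and 1 IP library. The cKO mice carried mGFAP-Cre and loxP/loxP at the targeted gene, while sex-matched littermates of loxP/loxP or loxP/+ genotype served as Ctrl, all on a C57BL/6J background. In TRAP-Seq the ribosomal protein L10a fused to EGFP was made only where Cre acts, so an antibody to GFP drew down ribosome-bound RNA of cells with a Cre history (IP), and the Input was taken from the same lysate beforehand. The stated genotypes of the TRAP-Seq Ctrl mice do not name the driver, although the tag needs Cre. Each library is the cortex of 1 mouse, and cells in which the GFAP promoter was active earlier in life would also carry the tag.

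Gene counts summed to 8855488 to 14575306 in bulk and to 18433087 to 27242445 in TRAP-Seq libraries. Values below are CPM, counts scaled to a common library total, after TMM scaling within a table, and a call is an adjusted p under 0.05 in edgeR's quasi-likelihood test, Benjamini-Hochberg adjusted over all genes tested. Fold changes are on the log2 scale and the value after ± is their standard error unless SD is written. The 10 astrocyte markers summed to 5796 to 7601 CPM in IP, 640.0 to 1249 CPM in Input and 3319 to 3980 CPM in bulk at P24. The 10 neuron markers still summed to 2658 to 3203 CPM in IP, against 6385 to 7271 CPM in Input. The 7 endothelial markers summed to 7.85 to 10.3 CPM in Input, 2.86 to 4.46 CPM in IP and 116 to 139.6 CPM in bulk at P24. TRAP-Seq and bulk libraries were prepared differently, so levels were not tested between tables, and these marker sums are set side by side as a description only. The Input library of cKO mouse 1 stood apart, with 767 CPM of blood markers against 144 to 261 CPM in the other Input libraries. P24 bulk cKO library 1 also stood apart from its group for some of these genes. Where leaving out either of these cKO libraries changed a call of these genes, the value without it is given. In P24 bulk the choroid plexus markers were low in library 1 of both genotypes. They summed to 9.41 CPM in Ctrl and 4.85 CPM in cKO mice, against 68.7 to 402 CPM in the other libraries.

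The counts of 10 of the 34 genes were shared with near-identical copies elsewhere in the genome. A copy was a non-overlapping annotated gene that matched the longest coding transcript over at least 300 bases at 95% identity or more, and 93 such copies were found, 77 of them of Gapdh. Eno1, the main enolase outside neurons, had 3 copies, which took 66.9 to 69.5% of the reads of gene plus copies in bulk and 62.8 to 67.4% in TRAP-Seq libraries. For Pgk1, phosphoglycerate kinase, the copies took 68.7 to 70.5% and 60.2 to 68.5%. Gapdh, glyceraldehyde phosphate dehydrogenase and a common reference gene, had 34.9 to 66.8% and 66.4 to 75.0% counted at copies. The shares were smaller for Ldha (14.5 to 18.6% in TRAP-Seq), Ldhb (19.0 to 19.9%) and Tpi1 (12.3 to 13.8%). Which of these reads came from the copies cannot be told from counts, so the level of these 10 genes is uncertain and each comparison was repeated with the copies' counts added. This repeat, chosen after the data were seen, changed 1 call among these genes, that of Gpi1 between IP and Input in cKO mice. The strand used in counting is not given in the sources used here, so reads of Hk1 and Hk1os, Pfkp and Pitrm1, Pdha1 and Map3k15, Tpi1 and Spsb2 and other pairs that overlap on opposite strands cannot be told apart.

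**Figure D1:**
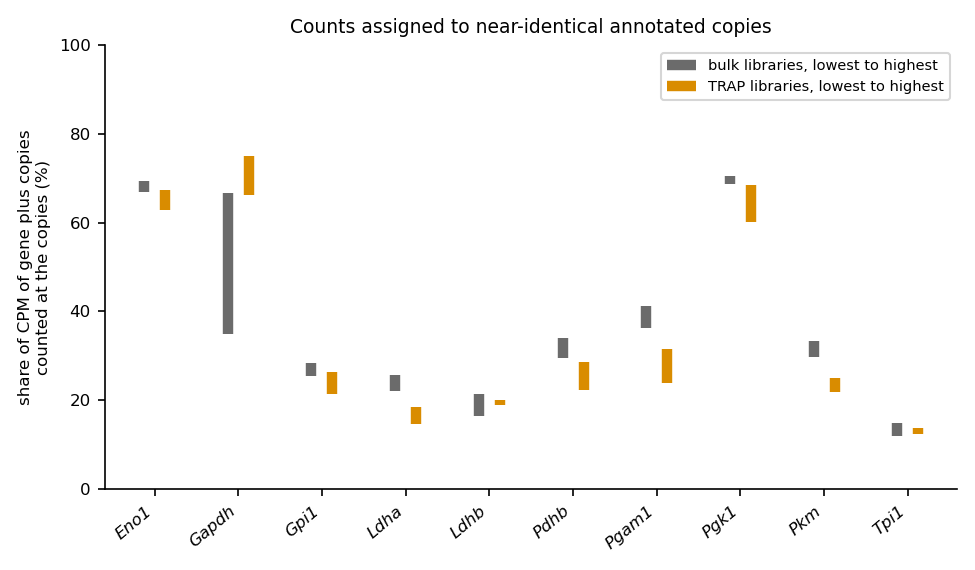
For each of the 10 genes with near-identical annotated copies, the bar spans the lowest to the highest library in the share (%) of CPM of gene plus copies that was counted at the copies, for bulk (grey) and TRAP-Seq (orange) libraries. Most reads of Eno1 and Pgk1 were counted at copies in every library, whereas Tpi1 had 11.8 to 14.8% there in bulk.

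IP was first compared with Input in Ctrl mice, to ask where in this route the ribosome-bound RNA of the tagged cells differs from the Input. The Input had lower sums of astrocyte and endothelial markers than the bulk libraries, as given above, though these were prepared differently and the difference was not tested. A fold change over Input, also for genes of astrocytes and vessels, is therefore not one over intact cortex. Of the 33 genes tested, 9 were higher and 17 lower in IP. Over all genes tested, 35.3% were higher and 35.7% lower, and the median log2 fold change was -0.35 over these genes and -0.03 over all genes. The general enzymes of glycolysis were mostly lower in IP, while Aldoc and Pdk4 stood far above Input. In cKO mice 5 were higher and 14 lower, where 27.8% and 28.5% of all genes were, with medians of -0.21 and -0.02. All 5 and all 14 had the same call in Ctrl mice, and none had opposite calls. Pkm (pyruvate kinase) was among the 14, at -0.85 ± 0.17 in cKO mice (adjusted p = 0.0025). In Ctrl mice it had 1306, 1468 and 1216 CPM in the Input libraries and 657, 615 and 712 CPM in the IP libraries. IP and Input of a mouse share a number, and with the number as a block 27 were called in Ctrl and 17 in cKO mice, where Gpi1 (adjusted p = 0.087) and Pcx (adjusted p = 0.069) no longer passed (over all alternatives, 0.008 to 0.18). Without the Input library of cKO mouse 1, 21 were called in cKO mice (16818 of all genes in place of 13526), the 19 and in addition Ldhb (0.48, adjusted p = 0.0046) and Pgk1 (0.47, adjusted p = 0.0038), both higher in IP, with 0.0038 to 0.83 for the pair over all alternatives. In bulk lysates and in IP alike, fewer cells of a type and less RNA per cell cannot be told apart.

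Aldoc encodes aldolase C, a classical astrocyte isoform of the enzyme that splits fructose bisphosphate. It had 382, 430.5 and 416 CPM in the Ctrl Input libraries and 4829.9, 5214 and 6221 CPM in the Ctrl IP libraries. Every IP library lay far above every Input library, with a log2 fold change of 3.72 ± 0.13, adjusted p = 1.1e-09. Its partner Aldoa, the ubiquitous aldolase, had 1701, 1994 and 1672 CPM in the Ctrl Input libraries and 1099.8, 1045 and 1173 CPM in the Ctrl IP libraries and was lower in IP (-0.71 ± 0.11, adjusted p = 8.5e-05). Counted per kilobase of exon, so that genes can be compared, Aldoc made up 16.2 to 18.2% of aldolase RNA in Ctrl Input and 79.7 to 82.6% in Ctrl IP.

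Among the enolases and hexokinases the lower RNAs were Eno2 and Hk1. Eno2, the neuronal enolase, had 1140.3, 1305 and 1074 CPM in the Ctrl Input libraries and 255, 235 and 299 CPM in the Ctrl IP libraries, with all IP libraries below all Input libraries (-2.17 ± 0.13, adjusted p = 3.3e-08). Eno1 had 606, 725 and 570.0 CPM in the Ctrl Input libraries and 757, 791 and 749 CPM in the Ctrl IP libraries, the 2 fractions not overlapping, but it missed the threshold (0.26 ± 0.11, adjusted p = 0.052) and passed it with the replicate number as a block (0.27, adjusted p = 0.042, and 0.0048 to 0.17 over all alternatives). Hexokinases trap glucose in the cell as its phosphate. Hk1, the main hexokinase of brain, had 392, 469.5 and 355 CPM in the Ctrl Input libraries and 118, 115 and 126 CPM in the Ctrl IP libraries and was lower in IP (-1.77 ± 0.12, adjusted p = 1.2e-07). Hk2, the inducible form, had 4.26, 3.62 and 3.50 CPM in the Ctrl Input libraries and 2.86, 2.76 and 3.55 CPM in the Ctrl IP libraries and overlapped between fractions (-0.33 ± 0.19, adjusted p = 0.14), so it made up 1.09 to 1.53% of hexokinase RNA per kilobase in Input and 3.32 to 3.86% in IP.

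The 3 phosphofructokinases catalyse the committed step of glycolysis. Pfkm, the muscle form, had 413, 451 and 399 CPM in the Ctrl Input libraries and 375, 363 and 451 CPM in the Ctrl IP libraries and did not pass the test (-0.10 ± 0.11, adjusted p = 0.45). Pfkl, the liver form, had 206, 251 and 183 CPM in the Ctrl Input libraries and 79.9, 79.0 and 81.6 CPM in the Ctrl IP libraries (-1.43 ± 0.12, adjusted p = 8.8e-07). Pfkp, the platelet form, had 251, 288 and 242 CPM in the Ctrl Input libraries and 129.5, 125 and 136 CPM in the Ctrl IP libraries (-1.01 ± 0.10, adjusted p = 3.2e-06). Both Pfkl and Pfkp were lower in every IP library than in any Input library, and the Pfkm share of phosphofructokinase RNA per kilobase was 69.6 to 72.5% in Input and 83.7 to 85.8% in IP. Among the enzymes that make or remove the phosphofructokinase activator fructose bisphosphate (the signalling isomer, not the glycolytic intermediate), Pfkfb3 (0.58 ± 0.20, adjusted p = 0.021) and Pfkfb4 (0.50 ± 0.11, adjusted p = 0.0011) were higher in IP and Pfkfb2 was not called (-0.04 ± 0.11, adjusted p = 0.75).

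Lactate dehydrogenase is a tetramer of A and B subunits, the A subunit favouring lactate formation and the B subunit pyruvate formation. Ldhb had 434, 447 and 442 CPM in the Ctrl Input libraries and 834, 744 and 846 CPM in the Ctrl IP libraries, without overlap (0.86 ± 0.09, adjusted p = 4.9e-06). Ldha had 379, 439 and 361 CPM in the Ctrl Input libraries and 312, 324 and 298 CPM in the Ctrl IP libraries, again without overlap but in the other direction (-0.35 ± 0.10, adjusted p = 0.0094). The Ldhb share of the pair per kilobase was 70.7, 68.2 and 72.1% in the Ctrl Input libraries and 84.9, 82.9 and 85.7% in the Ctrl IP libraries.

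The monocarboxylate transporters also differed in direction, and only Slc16a1 was higher in IP. Slc16a1 encodes MCT1, Slc16a7 MCT2, and Slc16a3 MCT4, which exports lactate from glycolytic cells. Slc16a1 had 8.86, 8.24 and 8.69 CPM in the Ctrl Input libraries and 17.2, 22.4 and 18.1 CPM in the Ctrl IP libraries (1.15 ± 0.13, adjusted p = 7.8e-06). Slc16a7 had 14.1, 14.7 and 13.9 CPM in the Ctrl Input libraries and 8.51, 8.54 and 5.90 CPM in the Ctrl IP libraries (-0.91 ± 0.15, adjusted p = 1.7e-04). Slc16a3 was scarce, with 3.29, 4.18 and 3.96 CPM in the Ctrl Input libraries and 0.791, 1.10 and 0.859 CPM in the Ctrl IP libraries (-2.06 ± 0.23, adjusted p = 5.9e-06). None of the 3 overlapped between fractions, as for 74.4% of all genes tested, and Slc16a1 took 47.9 to 52.5% of transporter RNA per kilobase in Input and 81.8 to 86.1% in IP. For glucose, Slc2a1 (GLUT1, of astrocytes and vessels) had 15.2, 21.2 and 14.1 CPM in the Ctrl Input libraries and 26.8, 35.9 and 35.6 CPM in the Ctrl IP libraries (0.95 ± 0.17, adjusted p = 3.4e-04), while Slc2a3 (GLUT3, of neurons) had 141, 159.7 and 129 CPM in the Ctrl Input libraries and 72.1, 69.7 and 69.8 CPM in the Ctrl IP libraries (-1.04 ± 0.11, adjusted p = 3.2e-06).

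The pyruvate dehydrogenase kinases shut off the complex by phosphorylating it. Pdk4, the form induced by fasting and fatty acids, showed the largest difference of these genes, with 3.25, 2.90 and 3.44 CPM in the Ctrl Input libraries and 50.9, 38.9 and 63.5 CPM in the Ctrl IP libraries (3.98 ± 0.19, adjusted p = 9.1e-09). Pdk2, the most abundant kinase per kilobase in every group, had 116, 112 and 104 CPM in the Ctrl Input libraries and 183, 157 and 181 CPM in the Ctrl IP libraries (0.63 ± 0.10, adjusted p = 1.2e-04). Pdk1 and Pdk3 were lower in IP, at 40.9, 35.9 and 38.0 against 50.9, 53.3 and 54.9 CPM (-0.48 ± 0.10, adjusted p = 6.9e-04) and at 18.5, 16.4 and 20.8 against 27.1, 25.1 and 27.2 CPM (-0.52 ± 0.12, adjusted p = 0.0015). Pdk4 therefore took 1.56 to 1.90% of kinase RNA per kilobase in Input and 15.4 to 20.5% in IP. Within the complex itself Pdha1 (E1 alpha) was higher in IP (0.42 ± 0.11, adjusted p = 0.0044), Dlat (E2) lower (-0.57 ± 0.10, adjusted p = 3.6e-04) and Pdhb (E1 beta) not called (-0.14 ± 0.09, adjusted p = 0.17). Pcx, pyruvate carboxylase, was lower in IP than in Input, with 79.0, 92.1 and 66.8 CPM in the Ctrl Input libraries and 49.3, 49.8 and 57.1 CPM in the Ctrl IP libraries (-0.62 ± 0.13, adjusted p = 0.0012). It was lower although the enzyme is described above as carried by astrocytes and largely lacking in neurons.

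**Figure D2:**
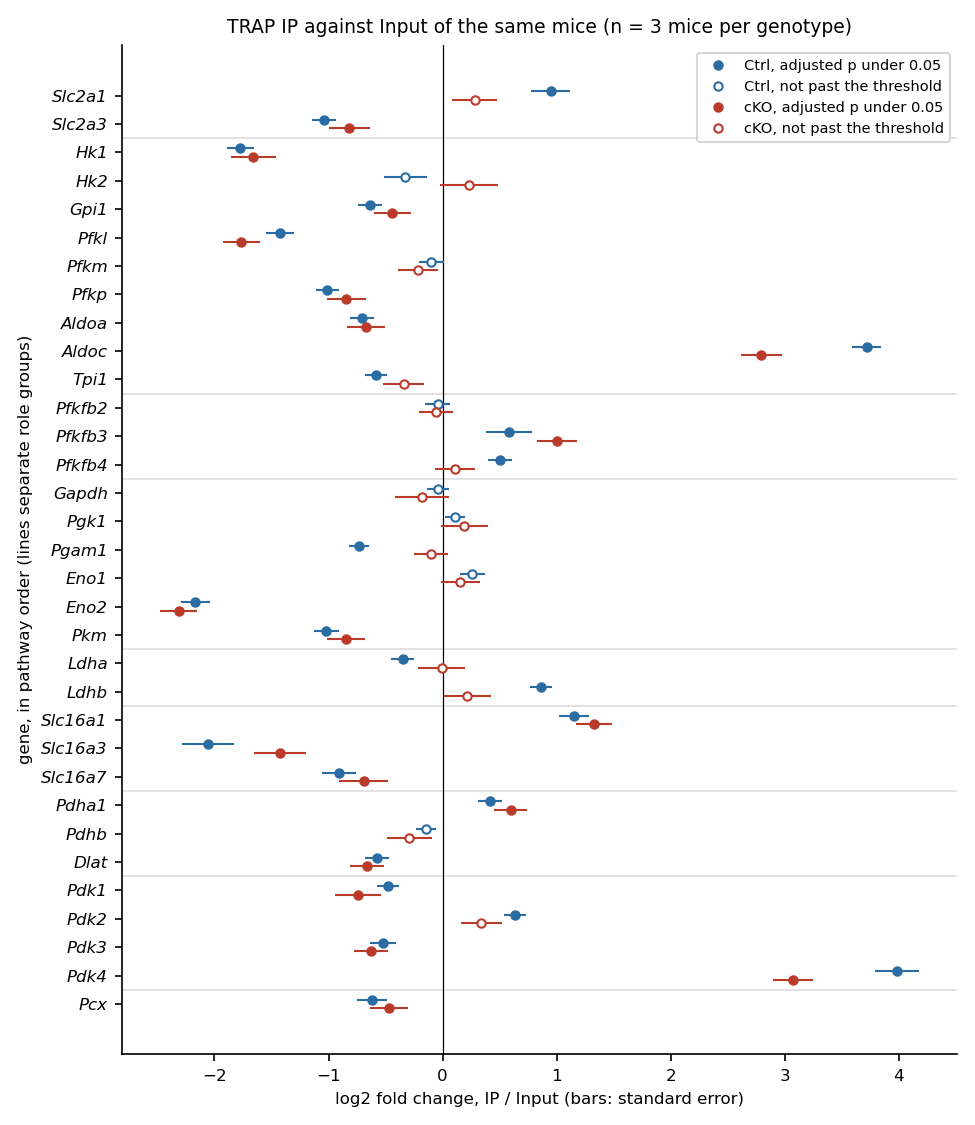
Log2 fold change of IP over Input (x axis, bars: standard error) for the 33 genes tested, in pathway order (y axis), in Ctrl (blue) and cKO mice (red), where filled points passed an adjusted p of 0.05. Pdk4 and Aldoc stand far to the right at 3.98 and 3.72 in Ctrl mice, and Eno2 lies farthest to the left at -2.17.

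Ranked by CPM per kilobase with the copies' counts added, the Ctrl IP was led by Aldoc (1662 ± 220.1, SD, n = 3), followed by Ldhb (639 ± 43.8), Pgk1 (489 ± 18.3) and Eno1 (427 ± 10.9). Each of these stood above the next, and Eno1 above Aldoa (379.9 ± 22.0), by more than the sum of their SDs, whereas Gapdh (185 ± 8.36) and Pkm (176 ± 12.8) further down could not be ordered within theirs. These SDs cover the spread between mice alone, not the choice of copies or of length. Without the copies' counts, Pgk1 and Eno1 fall below Aldoa in Ctrl IP. Exonic length was used, which for Eno1 is 5379 bases against 2027 in its longest coding transcript. The order of genes with copies is therefore uncertain. The lowest of the genes tested were Slc16a1 (4.35 ± 0.619), Pfkfb4 (3.69 ± 0.172), Slc16a7 (0.646 ± 0.128), Hk2 (0.512 ± 0.0726) and Slc16a3 (0.172 ± 0.0301), of which neither the first pair nor Slc16a7 and Hk2 could be ordered within their SDs. In Ctrl bulk at P24 the order began with Aldoa (361 ± 25.7 CPM per kilobase, n = 4), and Pgam1, Eno1, Pkm and Pgk1 lay together between 212 and 226.

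**Figure D3:**
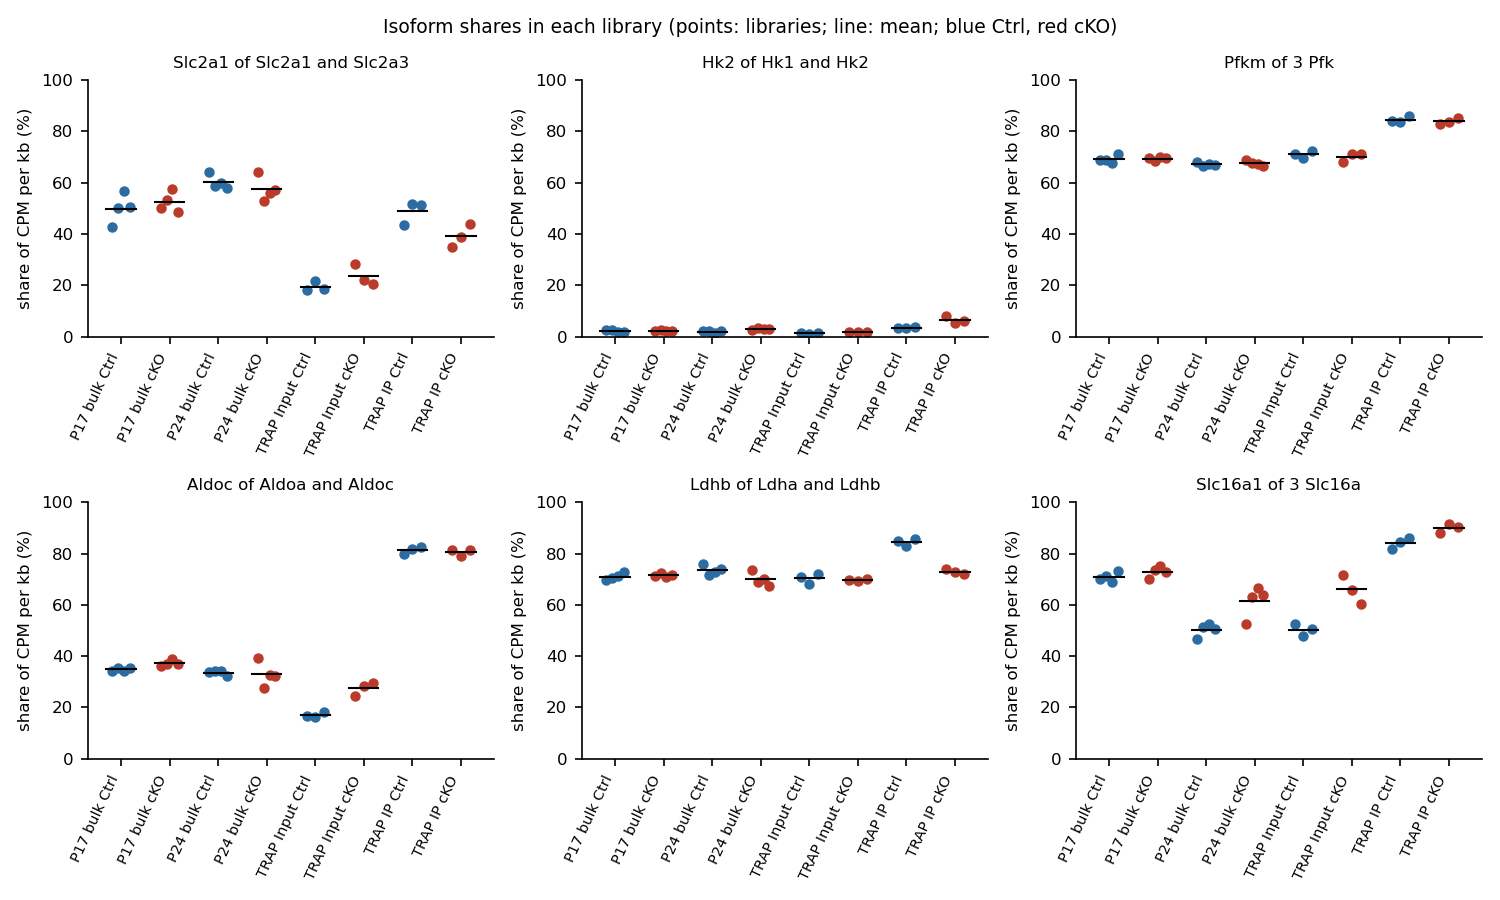
Share (%, y axis) of the CPM per kilobase of an isoform family taken by the named isoform in each library, for the 8 groups (x axis), where points are libraries, lines are means, blue is Ctrl and red cKO. The Ldhb share is set apart in Ctrl IP (82.9 to 85.7%) from cKO IP (72.1 to 73.9%), and the Aldoc share is higher in IP than in Input in both genotypes.

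The main comparison asked how the route differs in astrocyte ribosome-bound RNA when the targeted gene is missing. In IP libraries at P24, 6 genes rose and 5 fell in cKO mice, of 33 tested. That is 11 genes where 20.0% of all 23864 genes were called (11.6% higher, 8.42% lower), which is 33.3% of those tested, and the median log2 fold change was 0.04 for these genes and -0.01 for all genes. The genes that rose were Slc16a1, Hk2, Pgam1, Ldha, Tpi1 and Pgk1. Those that fell were Pfkfb4, Pdk4, Slc2a1, Ldhb and Pdk2. With all TRAP-Seq libraries in 1 fit, of these 11 only Slc16a1, Hk2, Pgam1 and Pfkfb4 were still called, so the other calls depend on the setting. By role, 2 of 9 upper enzymes, 2 of 6 lower enzymes and 1 of 3 monocarboxylate transporters rose with none falling. Among the glucose transporters 1 of 2 fell, as did 1 of 3 regulators of fructose bisphosphate tested and 2 of 4 pyruvate dehydrogenase kinases, and the 2 lactate dehydrogenases moved in opposite directions. Of the 33, 13 did not overlap between the genotypes (39.4%), where 37.7% of all genes tested did not. Of the 11 called, 9 did not, where 98.5% of all called genes did not, the exceptions being Slc2a1 and Pdk4.

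The sequence just before the first listed RefSeq start is shown for the 6 genes that rose together in the IP and for Ldhb, the sister of Ldha that fell. The letters are the 250 bases before the RefSeq start on GRCm38.p6, 5′ to 3′ along the gene, and capitals mark ACGTG or its reverse complement CACGT, the core of the site bound by hypoxia-inducible factors, which CACGTG holds on both strands and shares with E-box factors.
Slc16a1, chr3:104638414-104638663, plus strand: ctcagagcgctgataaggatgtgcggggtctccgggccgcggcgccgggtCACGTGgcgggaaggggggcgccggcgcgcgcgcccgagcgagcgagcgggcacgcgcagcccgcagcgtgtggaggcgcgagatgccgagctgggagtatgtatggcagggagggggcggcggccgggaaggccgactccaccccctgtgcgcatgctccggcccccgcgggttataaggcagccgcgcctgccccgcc
Hk2, chr6:82774455-82774704, minus strand: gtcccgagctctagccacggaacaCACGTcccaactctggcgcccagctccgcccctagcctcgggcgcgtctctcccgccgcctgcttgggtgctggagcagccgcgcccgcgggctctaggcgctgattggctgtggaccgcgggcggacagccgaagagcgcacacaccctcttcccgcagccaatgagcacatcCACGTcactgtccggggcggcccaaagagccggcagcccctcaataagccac
Pgam1, chr19:41911621-41911870, plus strand: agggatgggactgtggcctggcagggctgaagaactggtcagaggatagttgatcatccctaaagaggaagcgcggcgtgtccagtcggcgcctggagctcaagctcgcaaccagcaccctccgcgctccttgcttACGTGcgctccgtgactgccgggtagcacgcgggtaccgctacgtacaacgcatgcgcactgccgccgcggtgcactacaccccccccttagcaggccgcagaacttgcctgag
Pgk1, chrX:106186850-106187099, plus strand: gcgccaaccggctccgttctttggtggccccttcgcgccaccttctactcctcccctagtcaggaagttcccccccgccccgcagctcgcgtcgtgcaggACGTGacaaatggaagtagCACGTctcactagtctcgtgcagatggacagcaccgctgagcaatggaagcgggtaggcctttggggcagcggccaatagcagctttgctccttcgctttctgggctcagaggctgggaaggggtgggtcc
Ldha, chr7:46845554-46845803, plus strand: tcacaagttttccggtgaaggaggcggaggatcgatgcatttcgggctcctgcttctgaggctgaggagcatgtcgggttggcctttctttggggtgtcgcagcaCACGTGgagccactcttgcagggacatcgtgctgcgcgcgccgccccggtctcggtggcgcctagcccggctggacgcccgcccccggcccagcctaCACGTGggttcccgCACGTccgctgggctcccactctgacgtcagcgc
Tpi1, chr6:124814159-124814408, minus strand: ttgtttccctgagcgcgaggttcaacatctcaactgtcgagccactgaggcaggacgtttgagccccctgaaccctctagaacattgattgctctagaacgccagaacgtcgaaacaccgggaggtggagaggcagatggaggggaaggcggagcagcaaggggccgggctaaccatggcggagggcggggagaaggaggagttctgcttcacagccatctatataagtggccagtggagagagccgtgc
Ldhb, chr6:142507958-142508207, minus strand: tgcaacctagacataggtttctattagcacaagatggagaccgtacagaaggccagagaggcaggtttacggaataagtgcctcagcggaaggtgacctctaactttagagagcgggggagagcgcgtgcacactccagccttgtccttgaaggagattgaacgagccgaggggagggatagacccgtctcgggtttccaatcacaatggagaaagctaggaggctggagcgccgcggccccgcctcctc
On either strand, 16.57% of 27025 gene windows of this length held the core, against 15 of the 32 windows found for these genes (46.88%). The first listed window of a gene was used, although 12 of the 32 genes had several, and Slc2a3 and Slc16a7 had none. The Ldha window lies inside the annotated span of the gene, and the Tpi1 window overlaps the annotated start of Tpi1. Which windows hold the core therefore depends on the start chosen. The core stood in 5 of the 6 genes that rose (all but Tpi1), in 2 of the 5 that fell (Slc2a1 and Pdk2) and in 7 of 20 that were tested and not called, and the remaining window was that of Fbp2. The windows of all genes were not matched to these genes in base composition or expression, and the difference in shares was not tested. These matches describe letters only, and binding was not measured.

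Slc16a1, the lactate and pyruvate carrier whose window holds CACGTG once, showed the largest rise of the 33 genes. The gene lies at chr3:104638668-104658462, plus strand, on GRCm38. It had 17.2, 22.4 and 18.1 CPM in Ctrl mice and 31.1, 40.9 and 36.7 CPM in cKO mice, every cKO library lying above every Ctrl library (0.92 ± 0.14, adjusted p = 0.0013). The call held under all 15 alternative settings. Slc16a3 and Slc16a7 were not called (0.45 ± 0.26, adjusted p = 0.26 and 0.04 ± 0.16, adjusted p = 0.91), and Slc16a1 took 88.1 to 91.5% of transporter RNA per kilobase in cKO IP.

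The lactate dehydrogenases shifted against each other. Ldha (chr7:46841475-46855627, plus strand) had 312, 324 and 298 CPM in Ctrl mice and 436, 418 and 503 CPM in cKO mice and rose (0.55 ± 0.10, adjusted p = 0.0045). Ldhb (chr6:142490249-142507957, minus strand) had 834, 744 and 846 CPM in Ctrl mice and 585, 528 and 617 CPM in cKO mice and fell (-0.48 ± 0.10, adjusted p = 0.0083). Neither overlapped. The Ldhb share of the pair per kilobase was 84.9, 82.9 and 85.7% in Ctrl and 73.9, 72.7 and 72.1% in cKO IP libraries, and 83.2 to 86.0% and 72.9 to 74.3% with the copies' counts added. In the Input of the same mice the share was 68.2 to 72.1% in Ctrl and 69.1 to 70.1% in cKO mice, which overlapped.

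Among glycolytic enzymes, Hk2 (chr6:82725025-82774454, minus strand) had 2.86, 2.76 and 3.55 CPM in Ctrl mice and 6.31, 3.99 and 5.78 CPM in cKO mice and rose (0.82 ± 0.21, adjusted p = 0.017), whereas Hk1 was not called (-0.10 ± 0.11, adjusted p = 0.58). The Hk2 share of hexokinase RNA per kilobase was 3.32 to 3.86% in Ctrl and 5.24 to 8.09% in cKO IP, so Hk1 remained the main form. Pgam1, phosphoglycerate mutase (chr19:41911923-41918660, plus strand), had 424, 391 and 406 CPM in Ctrl mice and 612, 640.0 and 709 CPM in cKO mice (0.69 ± 0.10, adjusted p = 0.0011). Its groups stood well apart, and it too was called under all 15 alternatives. Tpi1, triosephosphate isomerase, had 623, 599 and 591 CPM in Ctrl mice and 756, 796 and 824 CPM in cKO mice (0.40 ± 0.09, adjusted p = 0.011). Pgk1, the kinase that makes the first ATP of glycolysis, had 378, 362 and 349.6 CPM in Ctrl mice and 445, 468 and 487 CPM in cKO mice (0.37 ± 0.09, adjusted p = 0.016). In both, the highest Ctrl library lay below the lowest cKO library.

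Other enzymes between glucose phosphate and pyruvate did not pass the test. Gpi1, phosphoglucose isomerase, differed by 0.15 ± 0.12, adjusted p = 0.40, and Pkm, pyruvate kinase, by 0.16 ± 0.12, adjusted p = 0.40. Aldoc, the RNA most abundant per kilobase in these libraries, had 4829.9, 5214 and 6221 CPM in Ctrl mice and 5031, 4742 and 6529.7 CPM in cKO mice, which overlapped (0.01 ± 0.14, adjusted p = 0.97), and Aldoa differed by 0.08 ± 0.11, adjusted p = 0.66. Gapdh differed by 0.11 ± 0.10, adjusted p = 0.47 and Eno1 by -0.08 ± 0.11, adjusted p = 0.67. The phosphofructokinases gave -0.19 ± 0.14 for Pfkm, 0.07 ± 0.10 for Pfkp and -0.31 ± 0.10 for Pfkl, whose adjusted p was 0.054.

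Pfkfb4, a bifunctional enzyme that sets the phosphofructokinase activator, lies at chr9:108991778-109032228, plus strand, and fell in all 15 alternatives. It had 18.9, 17.4 and 17.6 CPM in Ctrl mice and 13.0, 11.6 and 11.2 CPM in cKO mice, without overlap (-0.58 ± 0.11, adjusted p = 0.0054). Its relative Pfkfb3, the more glycolytic form, was at 0.34 ± 0.15, adjusted p = 0.15, and Pfkfb2 at -0.06 ± 0.11, adjusted p = 0.77. The glucose transporter Slc2a1 had 26.8, 35.9 and 35.6 CPM in Ctrl mice and 17.2, 22.3 and 27.0 CPM in cKO mice and fell, although cKO mouse 3 lay above Ctrl mouse 1 (-0.55 ± 0.17, adjusted p = 0.04). Slc2a3 was at 0.00 ± 0.09, adjusted p = 0.98.

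Pdk4 had 50.9, 38.9 and 63.5 CPM in Ctrl mice and 33.4, 30.2 and 39.9 CPM in cKO mice and fell, cKO mouse 3 lying just above Ctrl mouse 2 (-0.56 ± 0.17, adjusted p = 0.038). Pdk2 had 183, 157 and 181 CPM in Ctrl mice and 124, 129 and 152 CPM in cKO mice, without overlap (-0.36 ± 0.11, adjusted p = 0.044). All 4 kinases had a negative fold change, Pdk1 at -0.31 ± 0.10, adjusted p = 0.058 and Pdk3 at -0.06 ± 0.12, adjusted p = 0.77. The subunits of the complex did not pass, Pdha1 at 0.23 ± 0.09, adjusted p = 0.10, Pdhb at 0.10 ± 0.10, adjusted p = 0.50 and Dlat at -0.12 ± 0.10, adjusted p = 0.47, nor did Pcx at 0.14 ± 0.12, adjusted p = 0.47.

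**Figure D4:**
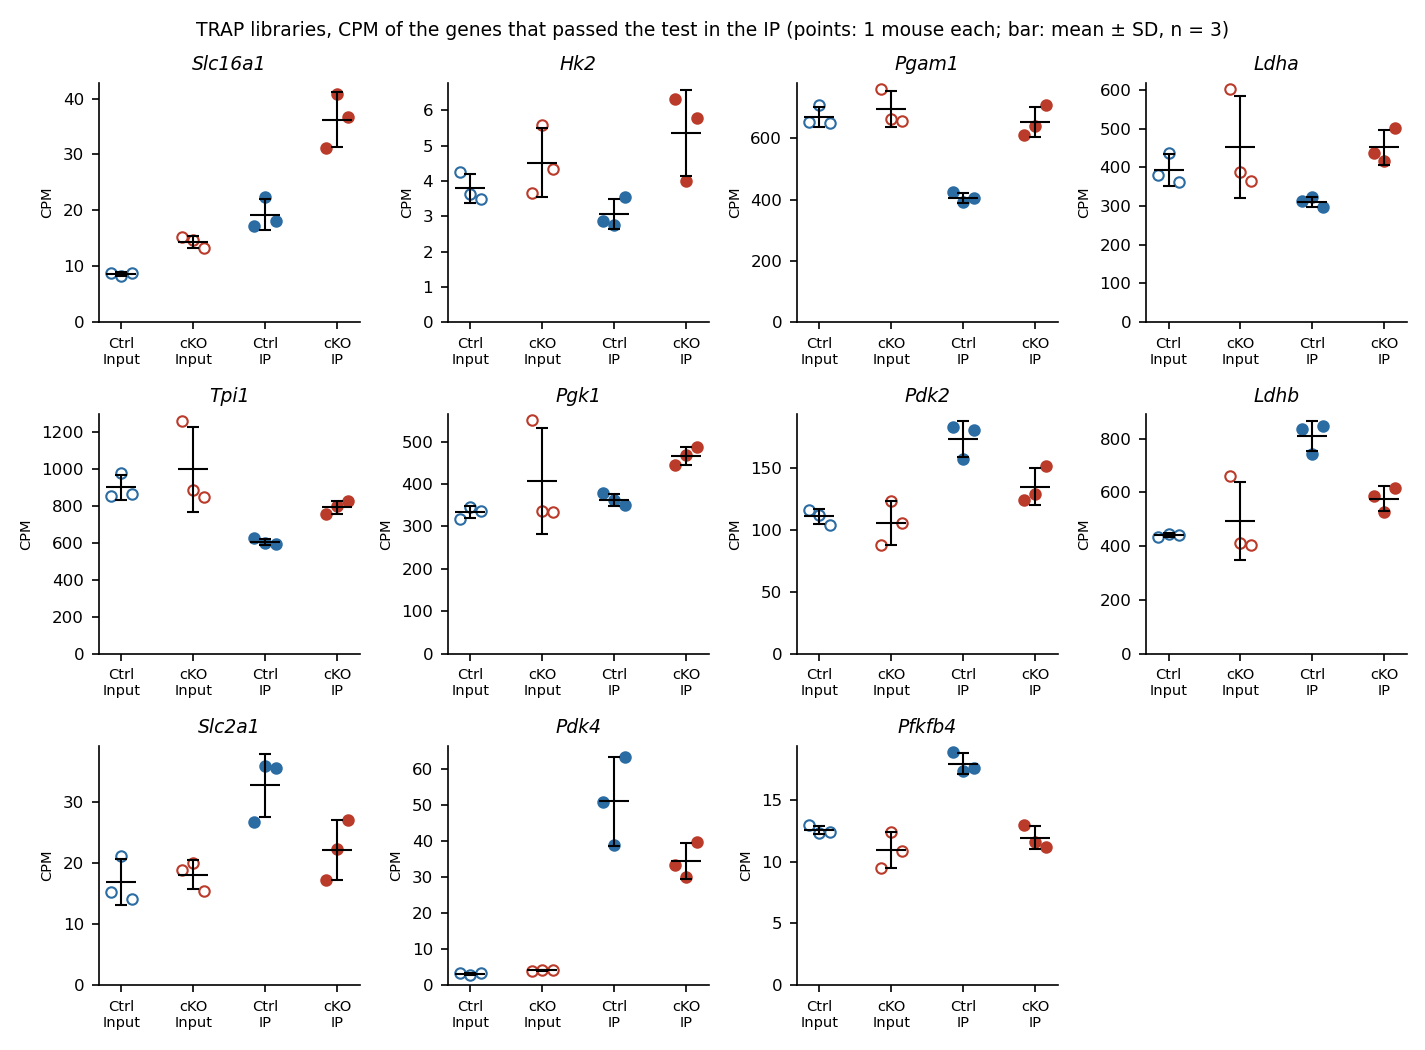
CPM (y axis, from 0) of the 11 genes called in IP, in each TRAP-Seq library of Ctrl (blue) and cKO mice (red), open points for Input and filled points for IP, with mean ± SD (n = 3). The cKO Input library 1 lies far above its group for Tpi1, Pgk1, Ldha and Ldhb, and Ldhb in cKO IP (585, 528 and 617) lies below all Ctrl IP libraries.

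Blocking on the replicate number gave 15 calls in IP, adding Pfkl (-0.31, adjusted p = 0.019), Pdk1 (-0.31, adjusted p = 0.018), Eno2 (-0.26, adjusted p = 0.024) and Pdha1 (0.23, adjusted p = 0.044). With all TRAP-Seq libraries in 1 fit, 4 were called, Slc16a1, Hk2, Pgam1 and Pfkfb4, and leaving out any single Ctrl library left 7. Over all alternatives the adjusted p of the added 4 ran from 0.015 to 0.45. In the same comparison 1 of 10 astrocyte markers rose (Gfap) and 3 fell (Gjb6, Slc1a3 and Slc1a2), and 2 of 10 neuron markers fell (Tubb3 and Syp). Of the pericyte markers 1 of 2 tested rose, Rgs5 (0.88 ± 0.27, adjusted p = 0.042), as did 1 of 3 oligodendrocyte precursor markers, Gpr17 (0.84 ± 0.26, adjusted p = 0.04), and none of the microglia, endothelial, oligodendrocyte, choroid plexus and blood markers was called. Summed, the astrocyte markers came to 5823 to 7601 CPM in Ctrl and 5796 to 7235 CPM in cKO IP, the neuron markers to 2694 to 3203 and 2658 to 2775 CPM, the 4 pericyte markers to 12.7 to 20.5 and 19.8 to 28.4 CPM, the 3 precursor markers to 24.8 to 32.9 and 28.2 to 64.0 CPM, and no listed marker was at 0 in every library. Their part in these results was not tested.

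In Input libraries, 1 of the 33 genes was called, Aldoc, where 0.109% of all genes were. It had 382, 430.5 and 416 CPM in Ctrl and 759.9, 804 and 761 CPM in cKO Input, without overlap (0.92 ± 0.13, adjusted p = 0.048), while its IP level overlapped between the genotypes as given above. The call was lost in 9 of 15 alternatives, with an adjusted p of up to 0.47. Leaving out any of the 6 Input libraries but cKO library 1 lost it. The summed astrocyte markers were also higher in cKO Input, at 640.0 to 738 CPM in Ctrl and 809 to 1249 CPM in cKO mice, and their part in the Aldoc difference was not tested. Slc16a1 had 8.86, 8.24 and 8.69 CPM in Ctrl and 15.2, 14.6 and 13.2 CPM in cKO Input, which did not overlap but did not pass the test (0.74 ± 0.15, adjusted p = 0.28). Pdk4 had 3.25, 2.90 and 3.44 and 3.78, 4.26 and 4.13 CPM (0.35 ± 0.19, adjusted p = 0.81). Input library 1 of the cKO mice was the highest of its group for Tpi1 (1260.5 CPM), Pgk1 (551 CPM), Ldha (603 CPM), Ldhb (662 CPM) and Gapdh (382 CPM). Without it the Input comparison still called 1 of these genes, and 112 of all genes.

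Whether the cKO effect in IP differed from that in Input was tested directly as an interaction. None of the 33 genes passed in edgeR, where 0.0582% of all genes did. An unadjusted p under 0.05 was held by 6 of the 33 and by 2252 of all 25768 genes. DESeq2 called 2. These were Aldoc, whose fold change in IP minus that in Input was -0.92 ± 0.20 (edgeR adjusted p = 0.12), and Pgam1, for which this was 0.63 ± 0.16 (edgeR adjusted p = 0.19). Without cKO Input library 1 the same pair passed in edgeR, at -0.94 (adjusted p = 0.025) and 0.70 (adjusted p = 0.022). Over all alternatives the adjusted p ran from 0.0021 to 0.29 for Aldoc and from 0.0027 to 0.44 for Pgam1. For Slc16a1 the interaction was 0.18 ± 0.20, adjusted p = 0.89, for Ldhb -0.65 ± 0.24, adjusted p = 0.43 and for Pdk4 -0.91 ± 0.26, adjusted p = 0.24. Ldhb, Pdk2, Pfkfb4 and Slc2a1 were higher in IP than in Input in Ctrl mice and not called in cKO mice, and Ldha, Pgam1 and Tpi1 were lower in Ctrl and not called in cKO, but with all libraries none of these 7 passed the interaction test in edgeR. Without cKO Input library 1, Ldhb was called higher in IP in cKO mice too, as given above, and the other 6 were still not called, Ldha and Pfkfb4 at 0.25 and 0.03 (adjusted p = 0.10 and 0.88, with those of the other 4 between).

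In whole cortex at P24, Hk2 was the only one of the 33 genes called, where 1.72% of all genes were. It had 5.74, 5.74, 4.13 and 5.90 CPM in Ctrl and 7.28, 9.71, 8.07 and 9.01 CPM in cKO mice, every cKO library being higher than every Ctrl library (0.66 ± 0.14, adjusted p = 0.034). The call was lost when any library but cKO library 1 was left out, with an adjusted p of at most 0.12. The median log2 fold change was 0.05 for these genes and 0.00 for all genes, and 27 of 33 fold changes were positive, among them those of all 9 upper and all 6 lower enzymes of glycolysis, none but Hk2 passing the test.

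Slc16a1, called in the IP, had 18.8, 27.0, 23.8 and 23.9 CPM in Ctrl and 22.2, 40.9, 44.0 and 41.9 CPM in cKO mice, where cKO library 1 lay inside the Ctrl range and the other 3 above it (0.67 ± 0.18, adjusted p = 0.11). In Ctrl mice too, library 1 was the lowest of its group for Slc16a1, and an offset shared by both libraries numbered 1 was not tested. Without cKO library 1 the difference was 0.85 with an adjusted p of 1.2e-04, and over all alternatives the adjusted p ran from 1.2e-04 to 0.29. Pfkfb3 had 24.1, 20.98, 25.2 and 23.1 CPM in Ctrl and 25.6, 29.0, 32.2 and 36.0 CPM in cKO mice, without overlap (0.39 ± 0.10, adjusted p = 0.075). Leaving out cKO library 1 brought 5 of these genes and 950 of all genes past the threshold, those 5 being Hk2, Slc16a1, Pfkfb3 (0.47, adjusted p = 0.006), Pdk1 (0.32, adjusted p = 0.038) and Ldhb (-0.25, adjusted p = 0.041). When Ctrl library 1 was left out instead, 0 of these genes and 235 of all genes passed.

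At P17 none of the 33 genes passed, where 0.0943% of all genes did. An unadjusted p under 0.05 was held by 847 of all 21201 genes and by 1 of the 33. That gene was Pcx, which had 93.3, 98.7, 94.6 and 98.9 CPM in Ctrl and 111, 105, 106 and 105 CPM in cKO mice, without overlap (0.15 ± 0.06, adjusted p = 1.00). DESeq2 called 0. Hk2 had 6.14, 6.11, 5.54 and 5.35 CPM in Ctrl and 5.51, 7.65, 5.72 and 5.73 CPM in cKO mice (0.08 ± 0.14, adjusted p = 1.00), and Slc16a1 60.0, 59.1, 49.7 and 62.0 and 66.7, 58.6, 65.4 and 59.2 CPM (0.11 ± 0.08, adjusted p = 1.00), both overlapping.

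The cKO effect at P24 was set against that at P17 in an interaction of age and genotype. None of the 33 genes passed in edgeR, where 0.0470% of all genes did, and DESeq2 called 0. An unadjusted p under 0.05 was held by 4 of the 33 and by 1479 of all 23395 genes. The fold change at P24 minus that at P17 was 0.57 ± 0.20, adjusted p = 0.60 for Hk2, and 0.56 ± 0.22, adjusted p = 0.68 for Slc16a1. Without P24 cKO library 1 Slc16a1 passed, at 0.74 (adjusted p = 0.0087, and 0.0087 to 0.91 over all alternatives), among 149 of all genes. Age and sequencing table cannot be told apart, so levels at the 2 ages were not tested against each other.

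**Figure D5:**
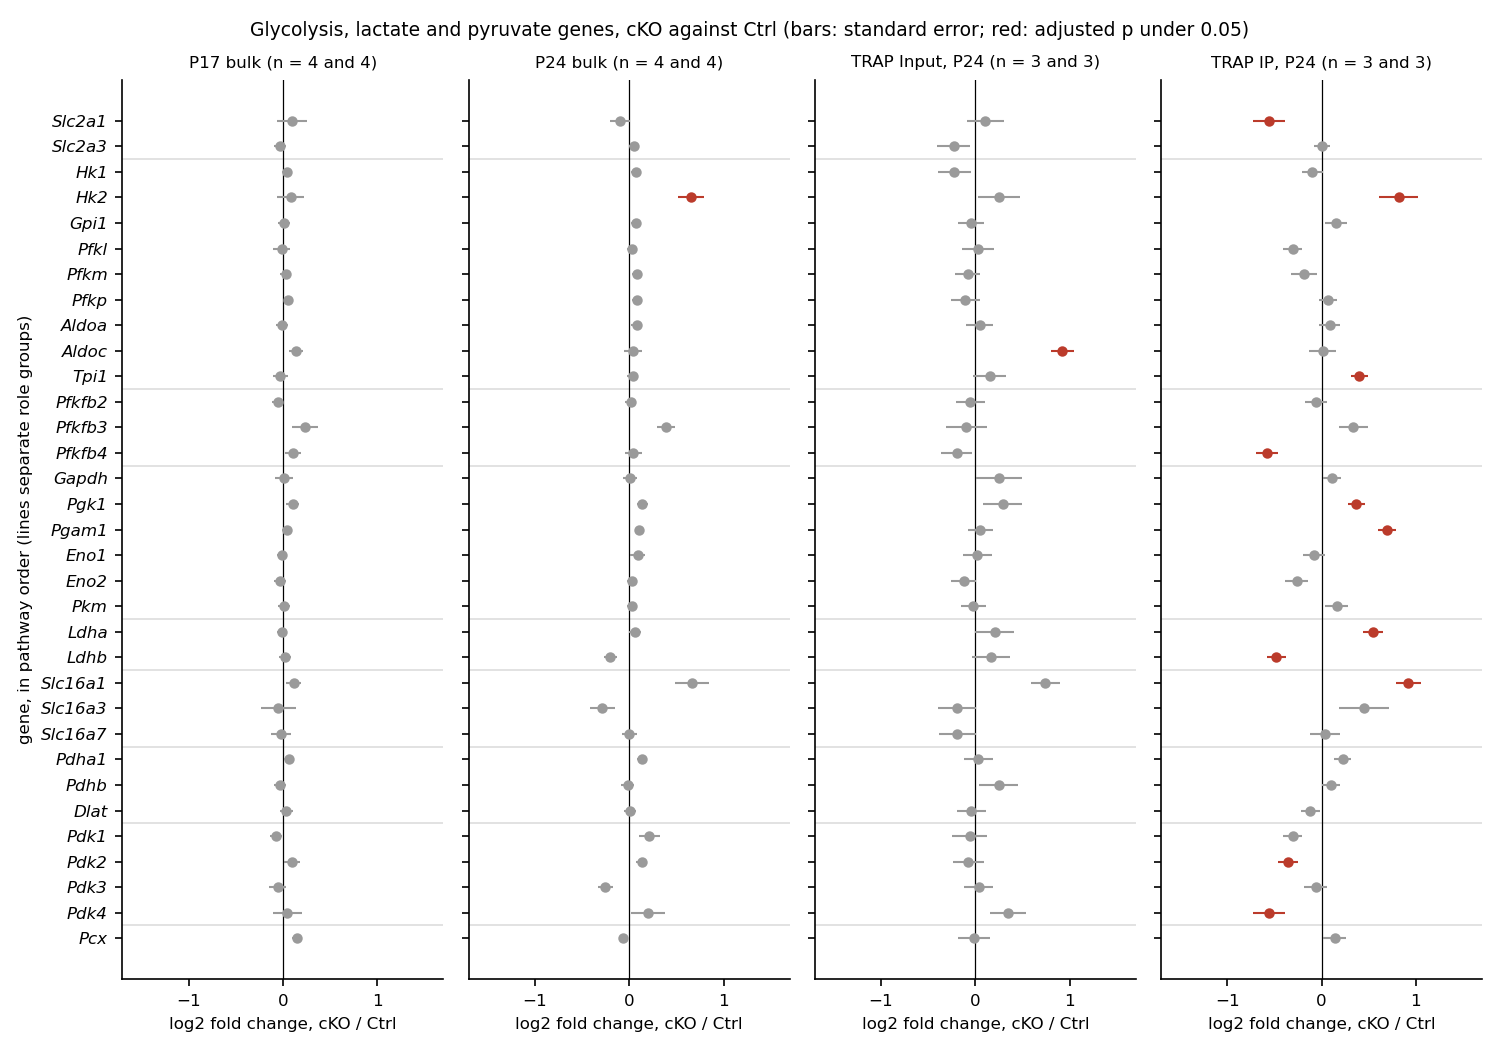
Log2 fold change of cKO over Ctrl (x axis, bars: standard error) for the 33 genes tested, in pathway order (y axis), in P17 bulk, P24 bulk, TRAP-Seq Input and TRAP-Seq IP libraries, with red points for an adjusted p under 0.05. No gene is red at P17, Hk2 (0.66) is at P24, Aldoc (0.92) is in Input, and 11 are in IP, from Slc16a1 (0.92) to Pfkfb4 (-0.58).

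Other genes of the pathway were read from lists of isoforms, transport, the pentose phosphate branch and the response to hypoxia and glucose. These lists too were chosen with earlier results of these data known, so their shares are not blind to the data. In IP, where 11.6% of all genes were higher and 8.42% lower, 5 of 18 further genes of transport and pyruvate entry rose (27.8%) and none fell, namely both subunits of the mitochondrial pyruvate carrier, Mpc1 (0.55 ± 0.09) and Mpc2 (0.57 ± 0.09), Emb (0.41 ± 0.12), a partner protein of monocarboxylate transporters, Ldhd (0.38 ± 0.11), which oxidises D-lactate, and Me1 (0.71 ± 0.10), which makes pyruvate and NADPH from malate. Of 8 pentose phosphate genes, 2 rose (25%), Taldo1 (0.84 ± 0.11) and G6pdx (0.48 ± 0.10), the entry enzyme of the branch. Of 20 hypoxia and glucose response genes, 3 rose (15%) and 4 fell (20%). The 3 were Adm (2.19 ± 0.28), Ndrg1 (0.55 ± 0.12) and Egln1 (0.33 ± 0.10), and the 4 were Txnip (-1.35 ± 0.39), which restrains glucose uptake, Kdm3a (-0.88 ± 0.12), Vhl (-0.51 ± 0.11) and Arnt (-0.47 ± 0.12). None of 13 other isoforms and side enzymes of glycolysis was called in edgeR, 1 having an unadjusted p under 0.05, where 8048 of all 23864 genes did. In P24 bulk, Tkt (0.35 ± 0.07, adjusted p = 0.023), a pentose phosphate enzyme, was the only gene of these 4 lists past the threshold.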

How the data were processed

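The authors aligned the reads with STAR to mm10 and deposited 3 tables of raw counts, not normalized, with 1 row per Ensembl gene; the counting tool and its strand setting are not given in the sources used here. They primed the bulk cDNA with oligo-dT and made the TRAP-Seq libraries from bead-selected RNA, with the DNA fragmented after cDNA synthesis. Of 53342 identifiers, 53237 were found in GENCODE M21, which gave symbols, positions and exonic lengths. The identifier of the last row of the P24 bulk table is cut short, and the row was kept.

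The 34 genes and the other lists were chosen with earlier results of these data known. Genes were kept with filterByExpr (minimum count 10, minimum total 15, proportion 70%), and tests were run with edgeR 4.0.16 under R 4.3.3 (TMM factors, glmQLFit and glmQLFTest, two-sided, Benjamini-Hochberg adjustment over all genes tested), using the libraries of the groups compared or, for the interactions, all 4 groups of an experiment. Every member past the threshold was named, as were the isoform pairs between IP and Input. The standard error is the fold change divided by the root of F. DESeq2 1.42.0 and other settings were alternatives. Copies were found with BLAST+ 2.17.0, and promoter sequences are from RefSeq (GRCm38.p6), with 32 of the 34 genes matched. The fits were tested on simulated data.

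A count of 3 corresponds to 0.206 to 0.339 CPM in bulk and 0.110 to 0.163 CPM in TRAP-Seq libraries, which covers counting error only. Replicate libraries differed beyond counting error (chi-square per degree of freedom 2.59 to 78.6 over 36 pairs). A replicate is 1 mouse. Same-numbered cKO and Ctrl libraries deviated together in IP (correlation of residuals 0.108 to 0.263 over 3 pairs) and at P17 (0.185 to 0.44 over 4 pairs). IP and Input of a number are the same mouse, with correlations of 0.0697 to 0.15 in Ctrl and -0.162 to 0.191 in cKO mice. In Ctrl mice 3 libraries correlated best with their own number, and in cKO mice 0 did. The shared mouse therefore did not show in the residuals of cKO mice, where the block was used as well. Between the genotypes, 3 libraries in IP and 4 at P17 correlated best with their own number. At P24 in bulk (0.0544 to 0.258) and in Input (-0.0815 to 0.163) 2 did in each, so there the numbers did not pair every library. The targeted gene is not reported here.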

Additional observations from a re-analysis of the deposited data

Results flagged for a closer look

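In the bulk groups of 4 mice, 12 of 136 gene and group combinations held a library far from the other 3 by Dixon's ratio of gap to range, where chance gives about 1 in 20. The combinations that touch a result above were Slc16a1 in P24 cKO, where library 1 had 22.2 CPM and the others 40.9 to 44.0, and Hk2 in P24 Ctrl, where library 3 had 4.13 CPM and the others 5.74 to 5.90. P24 cKO library 1 was also low for Eno1, at 328 CPM against 424 to 433.

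In P24 Ctrl mice, library 1 was high for Slc2a1 (115 CPM against 95.6 to 97.5) and library 3 high for Pfkl (153 CPM against 143.1 to 143.5). In P17 cKO mice, library 2 was high for Hk2 (7.65 CPM against 5.51 to 5.73). Library 3 of that group was high for Pfkm (292 CPM against 279 to 281) and Pgk1 (191 CPM against 169.8 to 172). Library 1 of that group was low for Tpi1 (281 CPM against 311 to 312) and high for Pcx (111 CPM against 105 to 106). In P17 Ctrl mice, library 3 was low for Pdhb (65.6 CPM against 67.0 to 67.1), and library 4 was high for Fbp2, at 0.227 CPM against 0.0877 to 0.111, all near or below the level of 3 counts.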

How the results depend on the processing

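Over all alternatives, 4487 values of these genes were recomputed, and 4370 kept their direction and side of the threshold, 70 lost the call, 47 gained it and 0 called values reversed. In IP, 11 genes were called in the main setting, 4 with all TRAP-Seq libraries in 1 fit (1684 of all genes instead of 4782) and 7 to 12 with a library left out. At P24, 1 was called in the main setting, 2 with DESeq2, 2 with all bulk libraries in 1 fit, 3 with the exact test, 3 without a filter, and 0 to 5 with a library left out. In Input, 1 was called in the main setting, 2 with DESeq2, 2 with the exact test, 2 in 1 fit, 0 with RLE factors, 0 with library size alone, 0 with at least 10 counts in every library, and 0 to 1 with a library left out. DESeq2 called 2 in the interaction of fraction and genotype, where leaving out a library gave 0 to 2, and leaving out a library gave 0 to 1 in that of age and genotype. IP against Input gave 25 to 27 in Ctrl and 15 to 21 in cKO mice with a library left out, 21 being without cKO Input library 1. At P17 the count was 0 throughout.

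Blocking on the replicate number gave 2 calls in P24 bulk (Slc16a1, 0.65, adjusted p = 0.0065, beside Hk2), 15 in IP and 0 in Input (Aldoc, adjusted p = 0.18). The block changed no other call of these genes beside those given with IP against Input. Counts over all genes moved by more than 1.5 times under some settings. At P24 (388) they were 593 with DESeq2, 618 without a filter, 608 with the exact test and 216 to 950 with a library left out. At P17 (20) they were 40, 55 and 56 in the same order, 109 with the block and 11 to 19 with a library left out. In Input (26) they were 118, 112 and 136, 127 in 1 fit, 8 with the block, 15 with at least 10 counts and 4 to 112 with a library left out, and in IP 2633 to 4810. The interaction of fraction and genotype (15) gave 299 with DESeq2, 189 without a filter, 6 with the block and 3 to 432 with a library left out, that of age and genotype (11) 54, 62, 55 and 4 to 149. The cause was not tested. Library size alone shifted the median of all genes in IP to -0.13. Isoform shares on the longest coding transcript, a length chosen after seeing the data, moved the mean Ldhb share in IP to 78.3% in Ctrl and 64.0% in cKO mice. Fbp2, with 0 to 7 reads a library, did not pass the filter on low counts, and low depth and low expression cannot be told apart there.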
